A study of Mus musculus with 4 samples.

Results

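The regions described here are Max-only sites between genes. These are peaks of the Max ChIP-Seq in mouse embryonic stem cells (ESCs) that carried no Bio-Myc peak and were centred in no annotated gene. They were selected on measured values. A member is a peak of the Max list that shares no base with a peak of the Bio-Myc list, does not reach within 1 kb of any annotated transcription start site (TSS), is centred in no annotated gene, lies on an autosome other than chromosome 8 and has a score below 3100. By this rule, 1270 of the 11570 Max peaks were members, or 1270 of the 10104 Max peaks that met the limits on chromosome and score. All coordinates are on mm9 with the GENCODE M1 annotation of 37310 genes, and the sites themselves therefore hold no annotated exon, intron or UTR at their centre.

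The series holds 4 libraries of E14 cells, a mouse ESC line, and the peak lists of 2 of them, Max and Bio-Myc, were set side by side. Max was precipitated with an anti-Max antibody from parental wild-type E14 cells, with an IgG ChIP as the control. Bio-Myc was purified on streptavidin beads from a stable clone of E14 cells that expresses Myc with an N-terminal biotin tag from an EF1α promoter, and the control was a streptavidin mock ChIP. The cells of the mock ChIP are parental wild type in the sample labels and cells with the BirA biotin ligase but no tagged protein in the methods. By the methods, the tagged clone was also made in cells with BirA. The tagged Myc came from 1 clone and was pulled down on streptavidin, while Max was measured with an antibody in cells without the tag. Clone, pull-down, control and protein therefore cannot be told apart when the lists differ. The control libraries entered only through the peak calls of the authors. A site with a Max peak and no Bio-Myc peak is one where tagged Myc did not pass the peak limit, and endogenous Myc was not measured in these lists.

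Max is a transcription factor of the bHLHZip family and binds DNA as a dimer. Myc proteins need Max to bind the E-Box, whose canonical form is CACGTG, and Max also pairs with Mnt, the Mxd proteins and Mga, or with itself. These dimers compete for the same partner and the same sequence, and those with Mnt, Mxd or Mga are mostly known as repressors, so a site with Max need not hold Myc.

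Examples of the sites are given before the counts, because they differ widely in sequence. The first group holds the canonical E-Box CACGTG, printed in capitals, and shows single E-Boxes, spaced E-Boxes and a tandem repeat. All sequences are the plus strand of mm9, 5′ to 3′. The names are those of the nearest protein-coding gene, which is not known to be the gene the site acts on.
Site near Hlf, chr11:90279405-90279543, with 3 E-Boxes: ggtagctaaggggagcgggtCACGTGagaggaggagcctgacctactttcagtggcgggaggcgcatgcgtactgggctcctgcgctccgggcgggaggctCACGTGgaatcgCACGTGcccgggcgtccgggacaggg
Site near Gata2, chr6:88140430-88140642, with 3 E-Boxes: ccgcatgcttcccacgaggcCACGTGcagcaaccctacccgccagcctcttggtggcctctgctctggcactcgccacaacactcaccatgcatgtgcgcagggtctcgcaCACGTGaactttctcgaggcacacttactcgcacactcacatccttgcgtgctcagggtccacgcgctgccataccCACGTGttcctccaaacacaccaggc
Site near Foxn2, chr17:88717801-88717930, with 4 E-Boxes: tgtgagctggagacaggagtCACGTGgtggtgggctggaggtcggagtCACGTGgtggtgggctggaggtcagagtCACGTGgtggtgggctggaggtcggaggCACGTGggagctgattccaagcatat
Site near Bhlhe41, chr6:145804358-145804417: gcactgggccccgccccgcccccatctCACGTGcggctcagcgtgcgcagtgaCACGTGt
Site near Igf1r, chr7:75095732-75095791: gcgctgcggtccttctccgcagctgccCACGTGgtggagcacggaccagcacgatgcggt
Site near Rbfox1, chr16:6348764-6348823: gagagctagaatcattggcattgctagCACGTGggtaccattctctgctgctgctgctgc
Site near Pou5f1, chr17:35627329-35627388: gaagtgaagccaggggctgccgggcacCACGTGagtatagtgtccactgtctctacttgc
Site near Mycn, chr12:12994530-12994589: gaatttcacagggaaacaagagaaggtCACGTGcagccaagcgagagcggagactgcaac
Site near Jarid2, chr13:44783686-44783745: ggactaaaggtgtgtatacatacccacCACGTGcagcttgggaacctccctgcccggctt

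The second group is shown because a related form, CACGCG, was in the central 200 bp of 28.8% of CpG-rich members and 6.02% of the others. The match near Scarf2 lies 189 bp from the centre of its peak, outside that window. CACGCG and its reverse complement are in capitals.
Site near Zfp541, chr7:16647065-16647124: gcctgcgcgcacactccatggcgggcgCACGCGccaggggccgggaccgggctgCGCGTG
Site near Scarf2, chr16:17815890-17815949: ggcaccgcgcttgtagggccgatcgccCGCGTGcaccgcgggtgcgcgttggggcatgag

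The last sequence is the middle of the member with the highest score, and it holds neither form. Its letters are of the kind of the mouse major satellite, the repeat of pericentromeric heterochromatin.
Site near Gm5614, chr9:35112891-35113010: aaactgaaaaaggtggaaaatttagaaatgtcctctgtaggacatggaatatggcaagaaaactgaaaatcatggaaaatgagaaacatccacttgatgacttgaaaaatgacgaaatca

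The median score of the members was close to that of Max-only sites inside genes and below that of sites with a Bio-Myc peak. The score of a peak is −10 times the log10 of its MACS p-value, and the deposited list starts at 80. Scores of the members ran from 80 to 1703 with a median of 118 (quartiles 95.2 and 169), and 403 of the 1270 scored under 100. The median width was 735 bp, with a range from 322 to 2743 bp. Max-only sites inside genes, away from promoters, had a median score of 123, and 30.5% of them scored under 100. Max sites between genes that did carry a Bio-Myc peak, 241 in number, had a median score of 167 and a median width of 821 bp. Of all Max peaks between genes, the share without a Bio-Myc peak was 93.2% in the lowest quartile of the members' scores and 72.8% in the highest, where the rule itself fixes what is counted. Scores and overlaps chose the members, so these values are descriptions.

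Some members lay close to the limits on TSS distance, Bio-Myc overlap and lowest score. The members nearest to a TSS window, near Gm10203, Spryd4 and Gpx4, had their edge 1015, 1041 and 1044 bp from a TSS. The peaks just outside it came within 996, 992 and 992 bp. The members nearest to a Bio-Myc peak, near Tha1, Mcl1 and Inhbb, were separated from it by 21, 91 and 108 bp, while the smallest overlaps that removed a site were 58, 115 and 117 bp. The lowest scores, 80 in each of 3 members near Arl4a and Xpnpep1, stood at the limit of the list. The upper score limit was not approached.

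Of the single motifs counted, the canonical E-Box was in the largest share of the members, and it was concentrated at their centres. In the central 200 bp, 334 of the 1270 sites (26.3%, 95% Wilson interval 24 to 28.8%) held CACGTG. Regions of the same length 10 kb to either side that met no Max peak served as the local background, and 60 of these 2474 regions (2.43%, 1.89 to 3.11%) held it. The difference was 23.9 percentage points (95% Newcombe interval 21.4 to 26.4), a ratio of 10.8. Over all 10104 Max peaks kept, promoters included, 20.9% held CACGTG in the central 200 bp. There are no replicate libraries, so no p-value is given. The intervals cover counting error only, and the sites of 1 library are not replicates.

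E-Boxes fell off with distance from the peak centre. There were 18.3 E-Boxes per 100 sites within 50 bp of the centre, 9.84 from 50 to 100 bp and 4.33 from 150 to 200 bp. Between 250 and 1000 bp the count stayed between 1.10 and 2.44 per 100 sites in every bin of 50 bp. Under the whole peak, 513 members (40.4%) held at least 1 E-Box, and in these the E-Box nearest to the centre was at a median of 59.5 bp (quartiles 24.5 and 126 bp). Most of them had a single copy: 443 members held exactly 1 CACGTG, 58 held 2 and 12 held 3 or more.

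**Figure D1:**
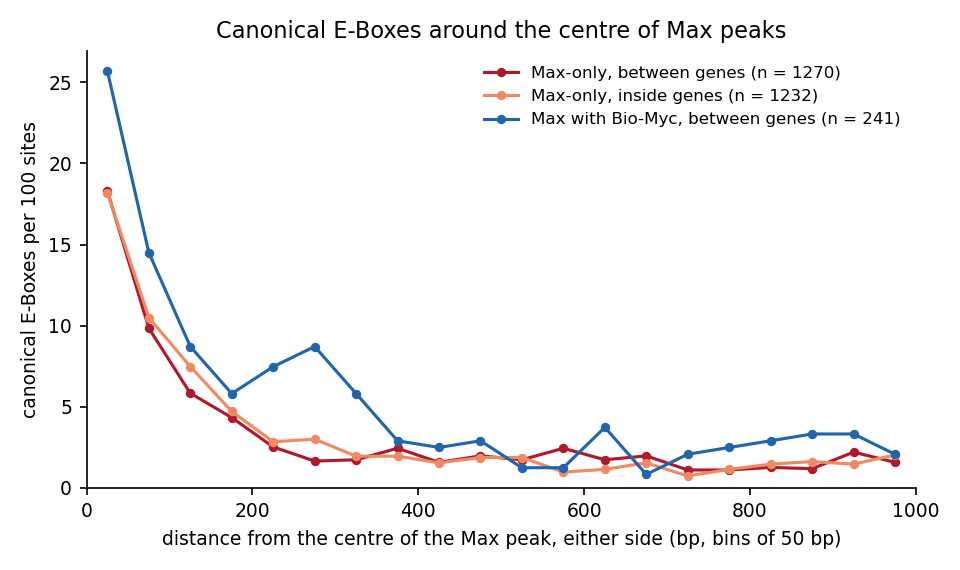
Canonical E-Boxes per 100 sites (y axis) in bins of 50 bp of distance from the centre of the Max peak, both sides together (x axis), in 3 classes of Max sites. The curve of the Max-only sites between genes starts at 18.3 and lies close to that of the Max-only sites inside genes, which starts at 18.2, and the sites with a Bio-Myc peak start at 25.7.

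Other letters were counted in the same windows on both strands. CACGCG was in 11.8% of members (10.2 to 13.7%) and in 0.970% of the flanking regions, a ratio of 12.2. CACGAG and CATGCG were in 9.37% and 8.66%, at ratios of 3.31 and 2.71. CATGTG, a form without a central CG, was in 16.5% of members and 17.6% of flanking regions, a difference of −1.05 points (−3.53 to 1.54). An E-Box form with a CG but no CACGTG was present in 273 members (21.5%), against 6.59% of the flanking regions. Thus the E-Box or 1 of the 4 other forms was found in 735 members (57.9%), against 24.5% of the flanking regions.

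Several words with a CG were thus more frequent in the members than 10 kb away, so 7 further palindromes around a CG, made of the same letters as CACGTG, were counted as controls. GTCGAC was in 0.787% of members, ACCGGT was in 1.89%, GACGTC was in 2.44%, and TCCGGA was in 3.70%. The word CTCGAG was in 3.78%, AGCGCT was in 4.25% and TGCGCA was in 7.01%. Their ratios to the flanking regions ran from 1.39 for GTCGAC to 6.42 for TGCGCA, all below the ratio of 10.8 for CACGTG. The flanking regions were not matched to the members in base make-up. Any of the 7 was in 21.7% of members and 7.15% of flanking regions.

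Some of the motifs of promoter factors were also more frequent than in the flanking regions. GGGCGGG, the GC box bound by Sp proteins, was in 13.1% of members, a ratio of 9.29. GGCGGGA, the core bound by E2F proteins, was in 6.93%, a ratio of 12.2. The NRF1 palindrome GCGCATGCG was in 1.65% of members and in 1 of the 2474 flanking regions. The difference was 1.61 points (1.01 to 2.47) and the ratio 40.9. CNAGGGGGC, the core of the site of CTCF, an insulator protein, was in 2.76%, a ratio of 6.82. CCGGAAGT, the core of Ets factors, was above the flanking regions by 0.781 points (0.270 to 1.51). For the YY1 motif AAGATGGCG (0.115 points, −0.167 to 0.578), the CRE letters TGACGTCA (0.0341 points, −0.278 to 0.505) and the NF-Y letters CCAATCA (0.809 points, −0.228 to 2.01) the interval of the difference includes 0.

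Of the motifs of pluripotency factors, that of the Klf factors was above the flanking regions. GGGTGTGG was in 4.49% of members, a difference of 2.14 points (0.931 to 3.53) and a ratio of 1.91. The octamer ATGCAAAT, bound by Oct4, was in 19 of the 1270 members (difference from the flanking regions 0.324 points, −0.414 to 1.23), the Sox motif AACAATG in 2.76% (−0.276 points, −1.35 to 0.939) and the Esrrb motif TCAAGGTCA in 0.551% (0.147 points, −0.295 to 0.758). The T-box core GGTGTGA was in 4.80%, with a difference of 0.680 points (−0.672 to 2.18). For the octamer, Sox, Esrrb and T-box letters the interval includes 0. A missing match says only that these letters are not in the window.

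**Figure D2:**
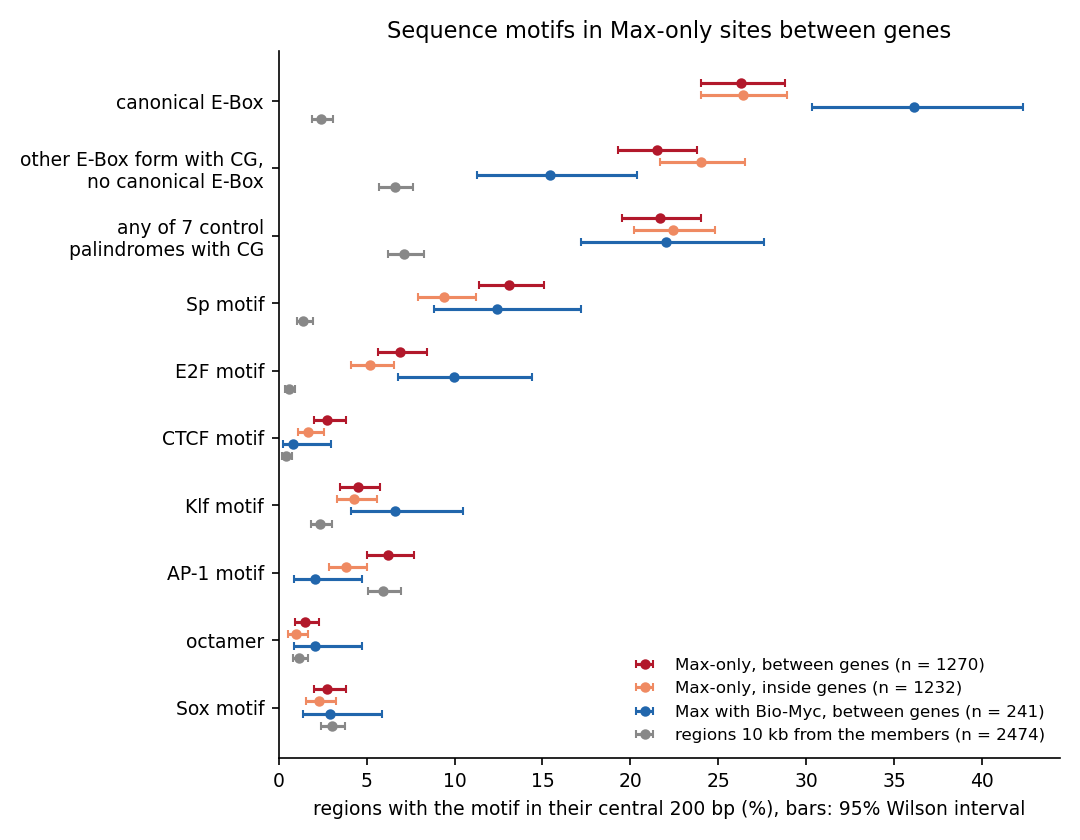
Share of regions with a motif in their central 200 bp (x axis, percent, bars are 95% Wilson intervals) for 10 motifs or groups of motifs (y axis) in the Max-only sites between genes, 2 comparison classes of Max sites and the flanking regions of the members. For the canonical E-Box the members lie at 26.3%, with the sites inside genes at 26.4%, the sites with a Bio-Myc peak at 36.1% and the flanking regions at 2.43%.

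Sites between genes differed with the presence of a Bio-Myc peak. Of the 241 Max sites between genes with a Bio-Myc peak, 87 (36.1%, 30.3 to 42.3%) held CACGTG in the central 200 bp, a difference, members minus these sites, of −9.80 points (−16.5 to −3.49). With the shares of the other class weighted to the members' score quartiles, the difference was −9.50 points (−17.0 to −1.97). Among sites with a score of at least 150 it was −6.51 points, with an interval that includes 0 (−15.8 to 2.20). Several E-Boxes under 1 peak were also less common in the members, with at least 2 in 5.51% against 21.6% (difference −16.1 points, −21.8 to −11.1). Peaks were narrower in the members, which bears on a count under whole peaks, and in a fixed window of 500 bp the shares were 3.07% and 10.8% (−7.72 points, −12.3 to −4.22).

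The same direction held for CATGTG, which was in 16.5% of members and 28.2% of the sites with a Bio-Myc peak (−11.7 points, −18.0 to −5.96). The forms with a CG but no CACGTG went the other way, with 21.5% of members and 15.4% of the sites with a Bio-Myc peak (6.14 points, 0.608 to 10.8). TGANTCA, the site of AP-1 factors, was in 6.22% and 2.07% (4.15 points, 1.20 to 6.03), although 5.94% of the flanking regions of the members held it too. For CACGCG (−0.637 points, −5.68 to 3.42), GGGCGGG (0.701 points, −4.38 to 4.79) and the control palindromes (−0.338 points, −6.39 to 4.98) the intervals include 0. Comparisons with 26 motifs were made in each class, and the intervals are not adjusted for their number.

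The base beside the E-Box also differed. This count was chosen after the values were seen. Dimers of Myc and Max are known to disfavour a T just 5′ of CACGTG, and whether this bears on the counts was not tested. The members held 354 E-Boxes in the central 200 bp, and 107 of these (30.2%, 25.7 to 35.2%) had a T 5′ of CACGTG on at least 1 strand. In sites between genes with a Bio-Myc peak it was 13 of 95 (13.7%, 8.17 to 22.0%), a difference of 16.5 points (7.05 to 24). A T on both strands, which gives the 8 letters TCACGTGA, was found at 14 of the 354 E-Boxes of members and at 0 of the 95. A C 5′ of the E-Box on at least 1 strand was found at 60.7% and 73.7% (−12.9 points, −22.3 to −2.11). Of all bases 5′ of the members' E-Boxes, counted on both strands, 17.1% were T and 39.0% were C. These bases were not counted in the flanking regions. Max-only sites inside genes had a T at 22.2% of their E-Boxes, below the members by 8.04 points (1.52 to 14.5), and Max-only sites at promoters at 39.7%, with a difference, members minus promoters, of −9.43 points (−15.1 to −3.45). A larger difference from the sites inside genes was that of a G on at least 1 strand, 46.0% against 57.1% (−11.0 points, −18.2 to −3.62). Against the sites with a Bio-Myc peak, the interval for G includes 0 (2.89 points, −8.38 to 13.7). In the sequences printed above, the first E-Box of the site near Hlf has a T on both strands.

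Max-only sites inside genes resembled the members in E-Box content. Of 1232 such sites, 26.4% held CACGTG in the central 200 bp, a difference of −0.0807 points whose interval runs from −3.53 to 3.37. GGGCGGG was more frequent in the members, at a difference of 3.73 points (1.25 to 6.21), and so were TGANTCA (2.41 points, 0.693 to 4.14) and CCAATCA, the site of NF-Y (1.69 points, 0.559 to 2.89). The NRF1 palindrome was higher in the members by 1 point (0.157 to 1.92). AGCGCT was less frequent in the members (−2.57 points, −4.40 to −0.776), and so were TGCGCA and CATGTG, at differences of −2.16 points (−4.32 to −0.0251) and −3.11 points (−6.13 to −0.0907). Max-only sites at promoters, 4788 in number, held CACGTG in 15.6%, which was below the members by 10.7 points (8.17 to 13.4). This gap narrowed when base make-up was held. Among sites that were not CpG-rich the difference was 3.72 points, with an interval that includes 0 (−0.215 to 7.65), and among CpG-rich sites it was 4.82 points (0.892 to 9.47). CACGCG was in 21.8% of the sites at promoters, where members minus promoters was −9.95 points (−12 to −7.74).

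A part of the members had the base make-up of a CpG island, the usual form of mammalian promoters. The central 500 bp was CpG-rich, meaning at least 50% G+C and an observed to expected CpG ratio of at least 0.6, in 323 members (25.4%, 23.1 to 27.9%). Over all 10104 Max peaks kept, promoters included, it was 66.1%. The median G+C of the members was 54.6% and the median CpG ratio 0.437. Of the Max sites between genes with a Bio-Myc peak, 65 of 241 were CpG-rich, and the interval of the difference includes 0 (−1.54 points, −7.91 to 4.23). CpG-rich sequence was more common in Max-only sites inside genes, at 31.2% (members minus these sites −5.74 points, −9.25 to −2.21).

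The CpG-rich members and the others differed in motifs. CACGTG was in 17.6% of the 323 CpG-rich members and 29.3% of the other 947, a difference of −11.6 points (−16.4 to −6.27). CACGCG was in 28.8% and 6.02%, GGGCGGG in 28.8% and 7.81%, and GGCGGGA in 12.4% and 5.07%. CpG-rich members were more often within 5 kb of a TSS, at 26.0% against 16.9% (9.11 points, 3.97 to 14.6). Their median score was 151 against 113 for the others.

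**Figure D3:**
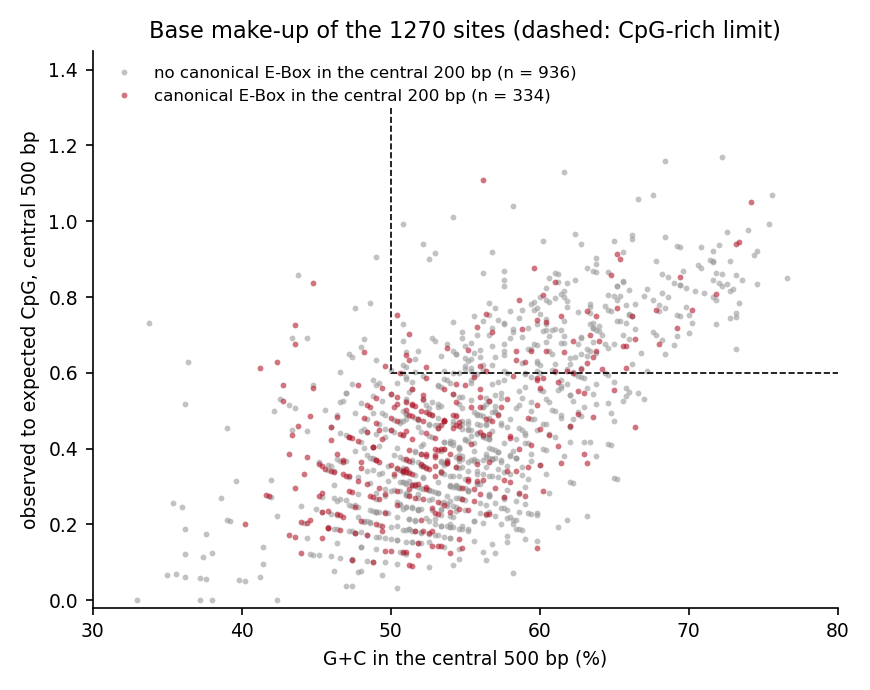
G+C content (x axis, percent) and observed to expected CpG ratio (y axis) of the central 500 bp of each of the 1270 members, 1 point each, coloured by whether the central 200 bp holds a canonical E-Box. The dashed corner marks the limit for CpG-rich sequence, and 57 of the 323 sites inside it and 277 of the 947 outside it hold an E-Box.

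The difference in E-Box share from sites with a Bio-Myc peak was seen in the members that were not CpG-rich, with 29.3% against 42.0% (−12.8 points, −20.7 to −5.15). In CpG-rich sites it was 57 of 323 members against 13 of 65, and the interval of the difference includes 0 (−2.35 points, −14.2 to 6.77). Whether the 2 differences differ from each other was not tested.

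Members with higher scores were more often CpG-rich, while the E-Box share had no such order. From the lowest to the highest quartile of score, CpG-rich sequence was in 16.4%, 18.6%, 22.4% and 44.3% of members. CACGTG was in 24.9%, 28.6%, 23.3% and 28.3%, with intervals that overlap. The share within 5 kb of a TSS lay between 17.9% and 20.8% in the 4 quartiles. The rise of the CpG-rich share was not particular to the members. Within the same score limits it went from 14.3% to 57.1% in Max-only sites inside genes. In sites between genes with a Bio-Myc peak it went from 1 of 23 to 48 of 119.

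**Figure D4:**
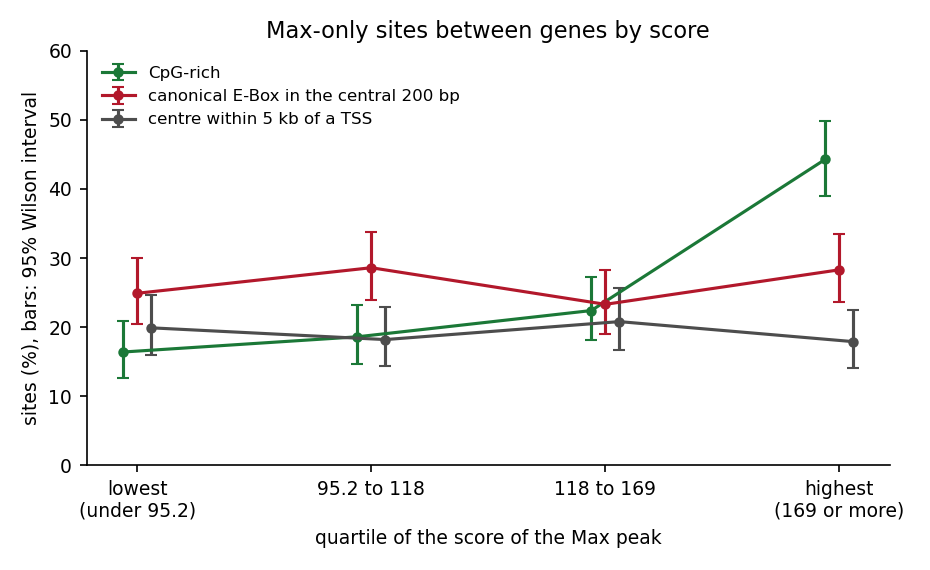
Share of the Max-only sites between genes (y axis, percent, bars are 95% Wilson intervals) that were CpG-rich, held a canonical E-Box or lay within 5 kb of a TSS, by quartile of the score of the Max peak (x axis). The CpG-rich share is 16.4% in the lowest quartile and 44.3% in the highest, and the other shares stay within 17.9% and 28.6%.

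The members lay at middle distances from genes. The median distance from the centre to the nearest TSS was 14964 bp (quartiles 6320 and 32660 bp). Within 5 kb of a TSS were 244 members (19.2%, 17.1 to 21.5%), from 5 to 50 kb 829 (65.3%) and beyond 50 kb 197 (15.5%), of which 62 were beyond 100 kb. They lay upstream of the nearest TSS in 781 cases (61.5%), against 63.1% for sites between genes with a Bio-Myc peak (−1.57 points, −8.01 to 5.21). The nearest TSS was that of a protein-coding gene for 883 members (69.5%), a pseudogene for 84, a processed transcript for 66, a lincRNA for 57 and a miRNA for 55. Members beyond 50 kb were more common than among sites with a Bio-Myc peak, 15.5% against 10.4% (5.14 points, 0.267 to 9). For the share within 5 kb, 19.2% against 23.2%, the interval of the difference includes 0 (−4.02 points, −10.1 to 1.36).

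**Figure D5:**
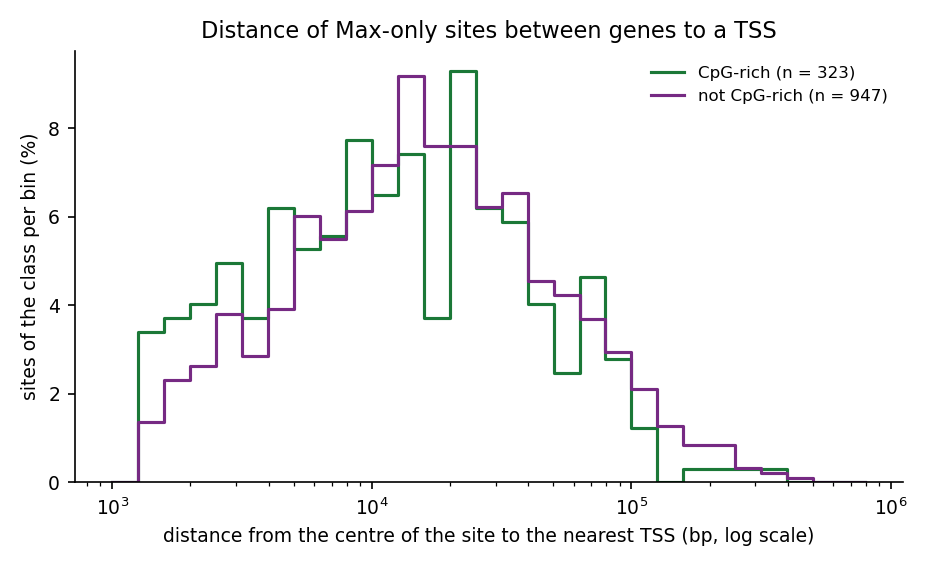
Distance from the centre of a site to the nearest TSS (x axis, bp, log scale) against the share of sites in each bin (y axis, percent of the class), for the 323 CpG-rich members and the 947 others. The medians are 12314 bp for the CpG-rich sites and 15664 bp for the others, and the CpG-rich sites have the larger share within 5 kb, 26.0% against 16.9%.

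The members farthest from a TSS differed in base make-up. The site near Rbfox1, a neuronal splicing factor, was centred 460525 bp upstream of its TSS, had a score of 114 and held an E-Box at its centre, printed above. The site near Kcnh5, a potassium channel gene, was 373131 bp away with a score of 307, and the site near Gm10295 was 354123 bp away with a score of 185. The latter was CpG-rich, with 69.4% G+C and a CpG ratio of 0.931, and the site near Kcnh5 had 39.0% G+C.

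Bio-Myc peaks were distant from most members, as they were from other Max-only sites. The median distance to the nearest one was 93462 bp (quartiles 34902 and 247139 bp). There were 19 members that had a Bio-Myc peak within 1 kb, 87 (6.85%) had one within 5 kb and 435 (34.3%) had one within 50 kb. In Max-only sites inside genes the median was 73935 bp, with 6.57% within 5 kb and 38.6% within 50 kb. At Max-only sites at promoters these values were 83918 bp, 6.04% and 36.8%. Another Max peak was within 10 kb of 432 members (34.0%, 31.5 to 36.7%). That share was lower than in the Max-only sites inside genes, 41.8% (−7.79 points, −11.6 to −3.99), and for sites with a Bio-Myc peak it was 37.8% (−3.74 points, −10.5 to 2.71).

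Some members formed small groups. With gaps of at most 10 kb, 241 members fell into 106 groups, of which 23 had 3 or more members and the largest had 4. A group of 4 lay near Socs3, the feedback inhibitor of LIF and other cytokine signals through Jak and Stat3, at chr11:117791671-117797837. The 4 peaks had scores from 96.7 to 138, and 3 of them held CACGTG. In all, Socs3 was the nearest coding gene of 8 members within 50 kb, the highest count of any gene, followed by Nxph3 with 5. Another group of 4 lay between Dnajb12, a chaperone gene, and Ddit4, an inhibitor of mTORC1 signalling, each the nearest coding gene of 2 of the peaks (scores 80.1 to 178). A further group of 4 lay near Fcgr1, an Fc receptor gene (scores 95.4 to 346, with no E-Box in any of the 4).

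The members were unevenly spread over the 18 autosomes. Chromosome 11 held 153, or 1.26 per Mb, and chromosome 3 held 47, or 0.294 per Mb. As a share of the Max peaks of a chromosome, the members ran from 8.25% on chromosome 2 to 19.7% on chromosome 12, with 12.6% on chromosome 11. Per 100 genes, chromosome 11 held 5.18 members, in a range from 1.93 on chromosome 2 to 6.61 on chromosome 15. These counts have no replicate.

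The highest scores belonged to sites of different kinds. The site near Gm5614 (score 1703) had 36.4% G+C and no E-Box, and 55.4% of the 24-letter words in its central 200 bp occurred once in the genome. The site near H2-M10.4, a gene of the major histocompatibility complex, at chr17:36621256-36622027 (score 1099), had 37.2% G+C and no CpG in its central 500 bp. The site at chr6:3132332-3134229 (score 1090) lay 201725 bp from Samd9l. None of these 3 held a canonical E-Box.

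The next in order included sites of a promoter-like make-up. The site near Hlf, a PAR bZIP transcription factor with circadian expression, had a score of 1006, 64.8% G+C and 3 E-Boxes in 933 bp, 27234 bp upstream of the TSS. The site near Gata2, a regulator of blood stem cells, lay 3651 bp upstream, with a score of 740 and 3 E-Boxes, none in the central 200 bp. The site near Igf1r, the receptor of insulin-like growth factors, had a score of 728, 71.8% G+C and 2 E-Boxes, 1875 bp upstream. The sites near Zfp541, a zinc finger gene of germ cells (score 720, 74.0% G+C), and Scarf2, a scavenger receptor gene (score 769, 69.6% G+C), held CACGCG but no CACGTG. The sites near Abt1 (score 931) and Gm4694 (score 825) were 2743 and 2168 bp wide, and each had another Max peak within 1 kb.

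The highest number of E-Boxes under 1 peak was 4, in 2 sites. The one near Bhlhe41 had a score of 300 and lay 9429 bp downstream of the TSS, and its gene encodes a basic helix-loop-helix repressor of the circadian clock that itself binds E-Boxes. The other, 122174 bp from Foxn2, had a score of 83.2, and its E-Boxes lay in a tandem repeat, as printed above. The site near Dyrk1b, a protein kinase gene, had a score of 285 and 3 E-Boxes, none in the central 200 bp.

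The genome used is not soft-masked, so repeats were not annotated, and instead the copies of each 24-letter word of the central 200 bp were counted over the reference chromosomes. In 30 members (2.36%) the median word occurred more than once, and in 9 it occurred at least 10 times. Exact words miss diverged repeats, and the site near Gm5614, with a median of 1 copy, is not among the 30. The highest medians were 531 copies near Maml2 (score 254), 54.0 near the pseudogene Gm9075 (score 220) and 33.0 near the pseudogene Gm13036 (score 138), here named by the nearest gene of any type. Only uniquely mapped reads were kept by the authors, so sites in repeats rest on the part of the sequence that is single.

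Genes of 5 lists were looked up among the nearest coding genes within 50 kb. The background was 804 of the 20336 coding genes on these autosomes (3.95%), reached from 951 members. Of the pluripotency genes, 3 of 21 were nearest to a member, of the Myc network genes 3 of 13, of the PRC1 and PRC2 genes 3 of 17, of the lineage regulators 2 of 18 and of the germline genes 0 of 20. The lists are short and nearest genes depend on how sparse the genes of a region are, so nothing is read from these shares.

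In the pluripotency list, the site near Pou5f1, which encodes Oct4, had a score of 88.5, lay 15564 bp upstream of the TSS and held 1 E-Box in the central 200 bp. The nearest Bio-Myc peak was 176172 bp away. The sites near Klf5 (score 121, 27099 bp downstream) and Prdm14 (score 107, 23043 bp downstream), both transcription factor genes of naive pluripotency, held no E-Box.

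In the Myc network, the site near Mycn, the paralogue of Myc, had a score of 128, lay 45829 bp upstream and held 1 E-Box near its centre. The site near Max itself had a score of 86.7, lay 3133 bp upstream of the TSS without an E-Box and had a Bio-Myc peak 1762 bp away. Mlxip, which encodes a partner of Mlx, had a site with a score of 86.8 at 19360 bp upstream, also without an E-Box.

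In the Polycomb list, the site near Jarid2, a subunit that accompanies PRC2, had a score of 124, lay 41120 bp upstream and held 1 E-Box. The site near Cbx2, a chromodomain subunit of PRC1, had a score of 114 and none. Rybp, a subunit of variant PRC1, had 2 members, with a score of 91.9 at 1830 bp upstream and a Bio-Myc peak 262 bp away, and with a score of 149 at 49116 bp upstream. Cbx8, another chromodomain subunit of PRC1, was not on the list and is named after its values were seen. It was the nearest coding gene of 3 members with scores of 274, 202 and 205, all of them CpG-rich.

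The lineage regulators Cdx2, of trophectoderm (score 157, 13917 bp downstream), and Neurog2, of neurons (score 161, 7679 bp upstream), had a site each without an E-Box, and only the latter was CpG-rich.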

How the data were processed

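Peak lists of the Max and Bio-Myc ChIP-Seq were analysed, with 1 library each. As their methods say, the authors aligned reads on mm9 by Bowtie 0.12.7 (unique alignments, at most 2 mismatches), removed duplicate reads, and used MACS 1.4.1 for peaks at a p-value of 1e-08 with the IgG or mock ChIP as the control. CASAVA 1.8 is also listed in their processing notes. The deposited score is −10 times the log10 of the MACS p-value. Read numbers are not in the lists, so the depth is unknown, and at a fixed p-value the number of peaks moves with it. A missing Bio-Myc peak is thus limited by depth, which was not analysed here.

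The members and lists were chosen with earlier results of these data known. Overlap meant at least 1 shared base. Motifs were counted on both strands with overlaps allowed in the central 200 bp of sites and of regions 10 kb away. Shares have 95% Wilson intervals and differences 95% Newcombe intervals. No test was run, as each list has 1 library. Sites named were the 10 highest and 3 lowest scores, the 5 with the most CACGTG, the 3 farthest from a TSS, the 3 nearest to the TSS window, the 3 nearest to a Bio-Myc peak, and listed genes. The sites with the most copies, groups of sites and bases beside the E-Box were added after seeing the values. Alternatives varied the score limit, gaps, gene types, windows and limits. Repeat masking could not be read from the genome given. Python 3.11.15 with numpy 2.4.6 and matplotlib 3.10.9 was used. On simulated data 6 of 6 counting steps returned the known answers.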

Additional observations from a re-analysis of the deposited data

Results flagged for a closer look

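Chromosome 8 was outside the rule and thus outside the comparisons, and its Max peaks were looked at only as data that no comparison used. It held 256 Max peaks without a Bio-Myc peak between genes, or 1.94 per Mb, where the 18 chromosomes used held between 0.294 and 1.26 per Mb. Of the 256, 23 (8.98%) had CACGTG in the central 200 bp and 26 were CpG-rich, against 26.3% and 323 of 1270 in the members. Their median score was 134. The cause was not tested.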

How the results depend on the processing

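Of 72 values under alternatives, 55 stayed within the 95% interval of the reported value (for the number of sites, within 1.5 times it), 17 moved beyond it, and no difference whose interval excluded 0 changed sign. With scores of at least 150, 399 sites remained and 40.6% were CpG-rich. In the central 500 bp and the whole peak, CACGTG was in 37.0% and 40.4% of members, above the flanking regions by 31.2 and 31.1 points, and the whole-peak difference from sites with a Bio-Myc peak was −18.5 points. In sites that were not CpG-rich, chosen after seeing the data, the share was 29.3% and the excess over flanking regions 26.9 points. With protein-coding genes only, 27.9% were CpG-rich and 30.1% within 5 kb of a TSS. With a TSS window of 5 kb, 23.1% were CpG-rich and 27.5% within 10 kb of another Max peak, and the share within 5 kb of a TSS has no meaning there. The stricter CpG limit gave 19.2%. Another Max peak lay within 5 kb of 24% and within 50 kb of 69.9%. With Bio-Myc peaks of a score of at least 150, the median distance was 262693 bp. Repeat-masked shares were not run, as the genome is not soft-masked, and copies of 24-letter words were counted instead. No paired analysis was possible because each list has 1 library. Depth limits how many weak sites could be found in either list.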
